A study of Mus musculus with 29 samples.

Results

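Genes for 7 subunits of voltage-gated sodium channels were followed in atria of male mice, of 55292 gene records in the count files. They were chosen by name: 4 alpha subunits (Scn10a, Scn4a, Scn3a and Scn7a) and 3 beta subunits (Scn2b, Scn3b and Scn4b). Polyadenylated RNA was sequenced in 29 libraries of 6 groups. In one experiment, transgenic mice labelled NaV1.5, fed regular diet (RD, 4 libraries) or high-fat diet (HFD, 5 libraries), were set against mice labelled Ctrl, fed RD (4 libraries) or HFD (4 libraries). In the other, NaV1.5 mice on HFD supplemented with nicotinamide riboside (NR, a precursor of the cofactor NAD, 7 libraries) were set against NaV1.5 mice on HFD with vehicle (5 libraries). Mice of both NR and vehicle groups thus carried the transgene and received HFD. HFD lasted 4 weeks, and treatments started at 5 weeks of age. The sources used here do not give the transgene's promoter, its sequence or founder line, or the strain of the mice. Whether libraries came from separate mice is not stated either, and p-values then reflect only how much these libraries vary.

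The alpha subunit of a sodium channel forms the pore, which opens when the membrane depolarises and lets sodium in to start the action potential. Beta subunits cross the membrane once, bind the alpha subunit and alter its gating and its number at the cell surface. In atrial muscle the sodium current drives the rapid upstroke and the spread of excitation. Scn10a encodes an alpha subunit best known from sensory neurons, and human variants at SCN10A have been associated with atrioventricular conduction. Scn4a encodes the main alpha subunit of skeletal muscle, and Scn3a one of the developing nervous system. Scn7a encodes Nax, an atypical member that responds to extracellular sodium rather than to voltage. Scn2b, Scn3b and Scn4b encode beta subunits that are found in heart as well as in nerve.

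In GRCm38 coordinates of the count files, Scn10a lies on the minus strand of chromosome 9 (119608456 to 119719322). Chromosome 9 also holds the 3 beta subunit genes on the plus strand, Scn3b (40269217 to 40291618), Scn2b (45117782 to 45130070) and Scn4b (45138395 to 45154152). Scn2b and Scn4b are neighbours there. On the minus strand of chromosome 2 lie Scn3a (65457118 to 65567627) and Scn7a (66673425 to 66784914), and on that of chromosome 11 lies Scn4a (106318592 to 106353288). Strand was not used in counting. Genes that overlap Scn3a, Scn2b and Scn3b on the opposite strand (Gm13595, Gm10684 and Gm47266) reached at most 0.065 CPM (counts scaled to library size, as edgeR's CPM) in any library.

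Promoters from RefSeq (GRCm38.p6, 250 bases before to 50 after the RefSeq start of the gene) were matched for 5 of the 7 genes: Scn10a, Scn4a, Scn7a, Scn2b and Scn4b. The promoters of 3 genes are shown, chosen by the RNA levels of these genes, and a link between promoter sequence and level was not tested. Scn10a is the gene that differed by genotype, Scn4b varied most within 3 of the 4 diet groups (not Ctrl HFD) among the 5 members that averaged at least 1 CPM, and Scn7a had the highest level per length. Bases run 5′ to 3′ on the strand of the gene, and capitals mark CG dinucleotides.
Scn10a, chr9:119718983-119719282, minus strand: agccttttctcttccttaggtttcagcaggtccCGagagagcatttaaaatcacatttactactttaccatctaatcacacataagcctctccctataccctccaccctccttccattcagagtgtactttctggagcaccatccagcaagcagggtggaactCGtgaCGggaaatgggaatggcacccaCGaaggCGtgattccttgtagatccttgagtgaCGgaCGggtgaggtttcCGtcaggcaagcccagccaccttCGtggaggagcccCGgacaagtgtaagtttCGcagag
Scn4b, chr9:45138374-45138673, plus strand: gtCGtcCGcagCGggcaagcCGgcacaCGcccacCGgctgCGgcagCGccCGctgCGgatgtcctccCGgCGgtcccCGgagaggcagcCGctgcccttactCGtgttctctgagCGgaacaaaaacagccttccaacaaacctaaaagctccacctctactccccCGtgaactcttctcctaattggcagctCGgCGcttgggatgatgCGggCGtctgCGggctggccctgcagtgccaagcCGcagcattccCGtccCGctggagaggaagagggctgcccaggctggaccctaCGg
Scn7a, chr2:66784861-66785160, minus strand: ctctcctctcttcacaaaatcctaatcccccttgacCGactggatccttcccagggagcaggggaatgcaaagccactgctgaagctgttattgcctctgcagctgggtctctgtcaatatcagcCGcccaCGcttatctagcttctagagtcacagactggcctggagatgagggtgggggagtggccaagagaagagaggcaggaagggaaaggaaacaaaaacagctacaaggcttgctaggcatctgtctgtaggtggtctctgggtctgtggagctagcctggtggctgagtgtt
The Scn4b promoter held 26 CG dinucleotides and was 66.3% G or C. That of Scn10a held 11 and was 51.7% G or C, and that of Scn7a held 3 and was 54% G or C. The median of 32851 mouse promoters of the same length was 7 CG dinucleotides and 52.7% G or C. On both strands, 5 motifs were searched. The T-box half-site TCACACC was present in 3.98% of all promoters. An E-box, CACCTG, was present in 20.2%. The GATA motif AGATAA was present in 11.2%. The CArG box was present in 1.63% and the TATA box TATAAA in 13.6% of them. None of them was found in the windows of Scn10a, Scn4b or Scn4a, while AGATAA was found once in that of Scn7a and CACCTG once in that of Scn2b. The RefSeq start can differ from that of the counted gene record: the Scn10a and Scn4a windows lie wholly inside their records, and the Scn4b window mostly inside. The counts are per gene and do not tell which start site was used.

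Libraries held 13189995 to 33061018 counts each. Labels place 16 of the 17 libraries of the diet experiment in batch 1 and Ctrl HFD replicate 4 in batch 2. All 5 vehicle libraries are in batch 3, while NR replicates 1 to 5 are in batch 2 and NR replicates 6 and 7 in batch 3. All 6 markers of atrial muscle were detected in every library, with summed levels of 41245 to 57631 CPM in the diet experiment and 16277 to 27787 CPM in the NR experiment. Of 6 ventricular markers, Irx4 was at 0 in 23 of 29 libraries and the other 5 were detected in every library, with medians from 1.90 CPM for Hey2 to 304 CPM for Myh7. A record named flag, 717 bases long and of unstated meaning, had no count in any of the 29 libraries. Where levels of genes are compared, CPM were divided by exon length in kilobases (kb).

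All 7 genes were detected, but at very unequal levels. Per length, Scn7a was the most abundant of the 7 in each of the 6 groups, and its libraries did not overlap with those of the next gene in any group. It averaged 5.06 ± 0.86 CPM per kb in NaV1.5 RD and 4.57 ± 0.69 CPM per kb in Ctrl RD atria (SD, n = 4 each). On HFD it averaged 5.23 ± 0.65 CPM per kb in NaV1.5 (n = 5) and 4.96 ± 0.34 CPM per kb in Ctrl atria (n = 4). In the other experiment it averaged 9.85 ± 1.76 CPM per kb in NR (n = 7) and 7.56 ± 0.72 CPM per kb in vehicle atria (n = 5). Scn4b, Scn4a and Scn10a followed, and neighbours among these 3 overlapped in the 4 groups of the diet experiment.

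The place of Scn10a in that order differed between genotypes. Per length it stood at rank 4 in all 4 NaV1.5 groups, with means of 0.974 ± 0.266 CPM per kb on RD (n = 4) and 0.885 ± 0.179 CPM per kb on HFD (n = 5). It stood at rank 2 in Ctrl groups, with means of 2.34 ± 0.25 CPM per kb on RD and 2.05 ± 0.34 CPM per kb on HFD (SD, n = 4 each). In both Ctrl groups its libraries overlapped with those of Scn4b, next in order. In Ctrl HFD all Scn10a libraries lay above all Scn4a libraries. Scn10a made up 10.2% ± 2.9 (n = 4) of the summed level of the 7 genes per length in NaV1.5 RD and 21.6% ± 3.2 (n = 4) in Ctrl RD atria. On HFD its share was 8.61% ± 1.41 (n = 5) in NaV1.5 and 18.8% ± 2.8 (n = 4) in Ctrl atria. As a share of a sum, this value also moves with the other 6 genes. The plot of levels per length shows the 7 genes across groups.

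**Figure D1:**
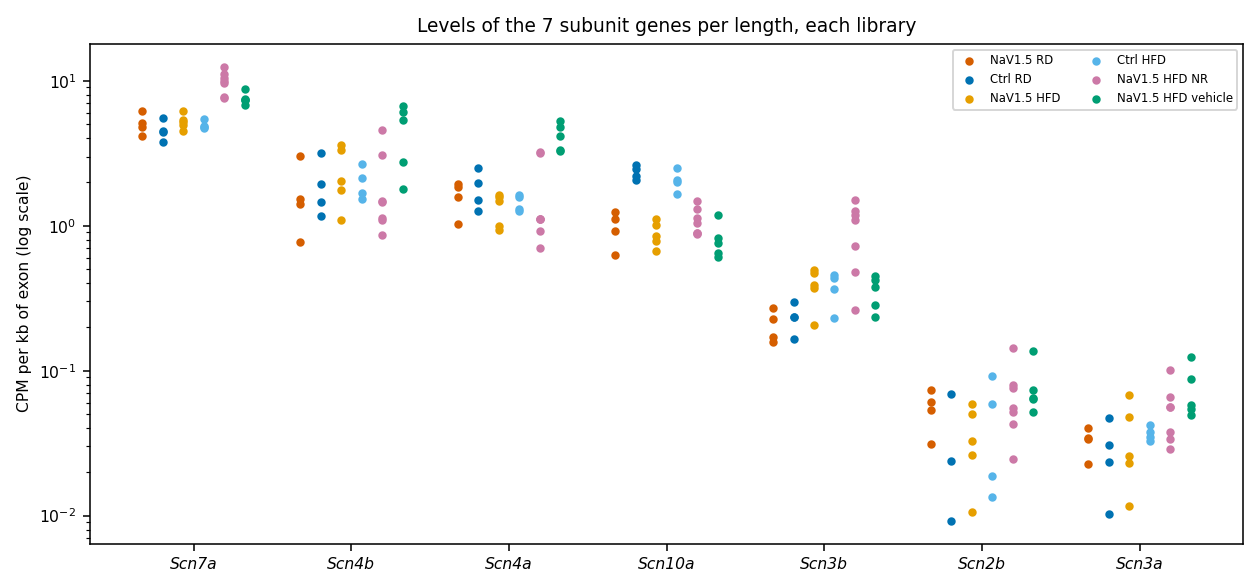
Level of each gene in CPM per kb of exon on a log axis, 1 point per library, coloured by group; the 1 library with 0 counts of Scn2b (Ctrl RD) is not drawn. Scn7a lay above the other 6 genes in each group, Scn2b and Scn3a lay lowest, and Scn10a was lower in the NaV1.5 groups of the diet experiment than in the Ctrl groups.

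Scn3b stood at rank 5 in every group, between 0.206 ± 0.052 CPM per kb in NaV1.5 RD (n = 4) and 0.929 ± 0.451 CPM per kb in NR atria (n = 7). Scn3a and Scn2b were the lowest of the 7 and overlapped in every group, with group means of 0.0279 to 0.0748 CPM per kb for Scn3a and 0.0254 to 0.0781 CPM per kb for Scn2b. Scn3a had 2 to 30 counts per library and Scn2b had 0 to 14. The 1 library without a Scn2b count (Ctrl RD replicate 2) allows a level of up to 0.195 CPM, from a limit of 3 counts that covers counting error only. Scn2b did not pass the low-count filter in either experiment, so 6 of the 7 genes were tested.

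The first question was how NaV1.5 atria differed from Ctrl atria on each diet. Scn10a was lower in NaV1.5 atria on both diets, 2.38-fold on RD and 2.15-fold on HFD, and it was the 1 gene of 6 tested that passed. On RD, Scn10a had 7.27, 5.03, 8.82 and 9.93 CPM in NaV1.5 atria, against 20.8, 17.7, 19.7 and 16.4 CPM in Ctrl atria. Every NaV1.5 library lay below every Ctrl library, which was true in either direction for 3.48% of all 16168 genes tested. The log2 difference was -1.25 (95% interval -1.62 to -0.88, SE 0.17, adjusted p = 0.00632, edgeR quasi-likelihood test), and 0.0124% of all genes tested passed in this comparison. By p, Scn10a was at rank 2 among all genes tested.

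On HFD, Scn10a had 8.88, 5.33, 6.74, 8.07 and 6.24 CPM in NaV1.5 atria, against 15.9, 16.5, 13.2 and 19.8 CPM in Ctrl atria. Again the groups did not overlap, as for 3.22% of all genes tested. The log2 difference was -1.10 (95% interval -1.47 to -0.74, SE 0.18, adjusted p = 0.0144, edgeR quasi-likelihood test), with 0.0866% of all genes passing. The batch 2 library, Ctrl HFD replicate 4, was the highest of its group, and the 3 batch 1 libraries of Ctrl HFD at 13.2 to 16.5 CPM lay above all NaV1.5 HFD libraries. The call on RD was lost without NaV1.5 RD replicate 1 (adjusted p = 0.0563, edgeR). The call on HFD was lost without Ctrl HFD replicate 1, 2 or 3 (adjusted p = 0.0714, 0.0851 and 0.0548, edgeR), and the log2 difference stayed between -1.39 and -1.01 over all libraries left out in turn in both diets.

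Over both diets, the 9 NaV1.5 libraries spanned 5.03 to 9.93 CPM of Scn10a with a median of 7.27, against 13.2 to 20.8 CPM with a median of 17.1 in the 8 Ctrl libraries. No NaV1.5 library reached the lowest Ctrl library, and such a gap was found for 0.142% of all genes tested. The mean of both genotype differences was -1.18 on the log2 scale, 2.26-fold lower in NaV1.5 atria (SE 0.12, adjusted p = 8.28e-05, edgeR quasi-likelihood test), where 0.452% of all genes tested passed. This call was kept with each library left out in turn (adjusted p = 1.56e-05 to 0.000736, edgeR). The genotype difference on HFD minus that on RD was 0.15 (95% interval -0.37 to 0.67, adjusted p = 1.00, edgeR). In whole atria, fewer cells of a type and less RNA per cell cannot be told apart.

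**Figure D2:**
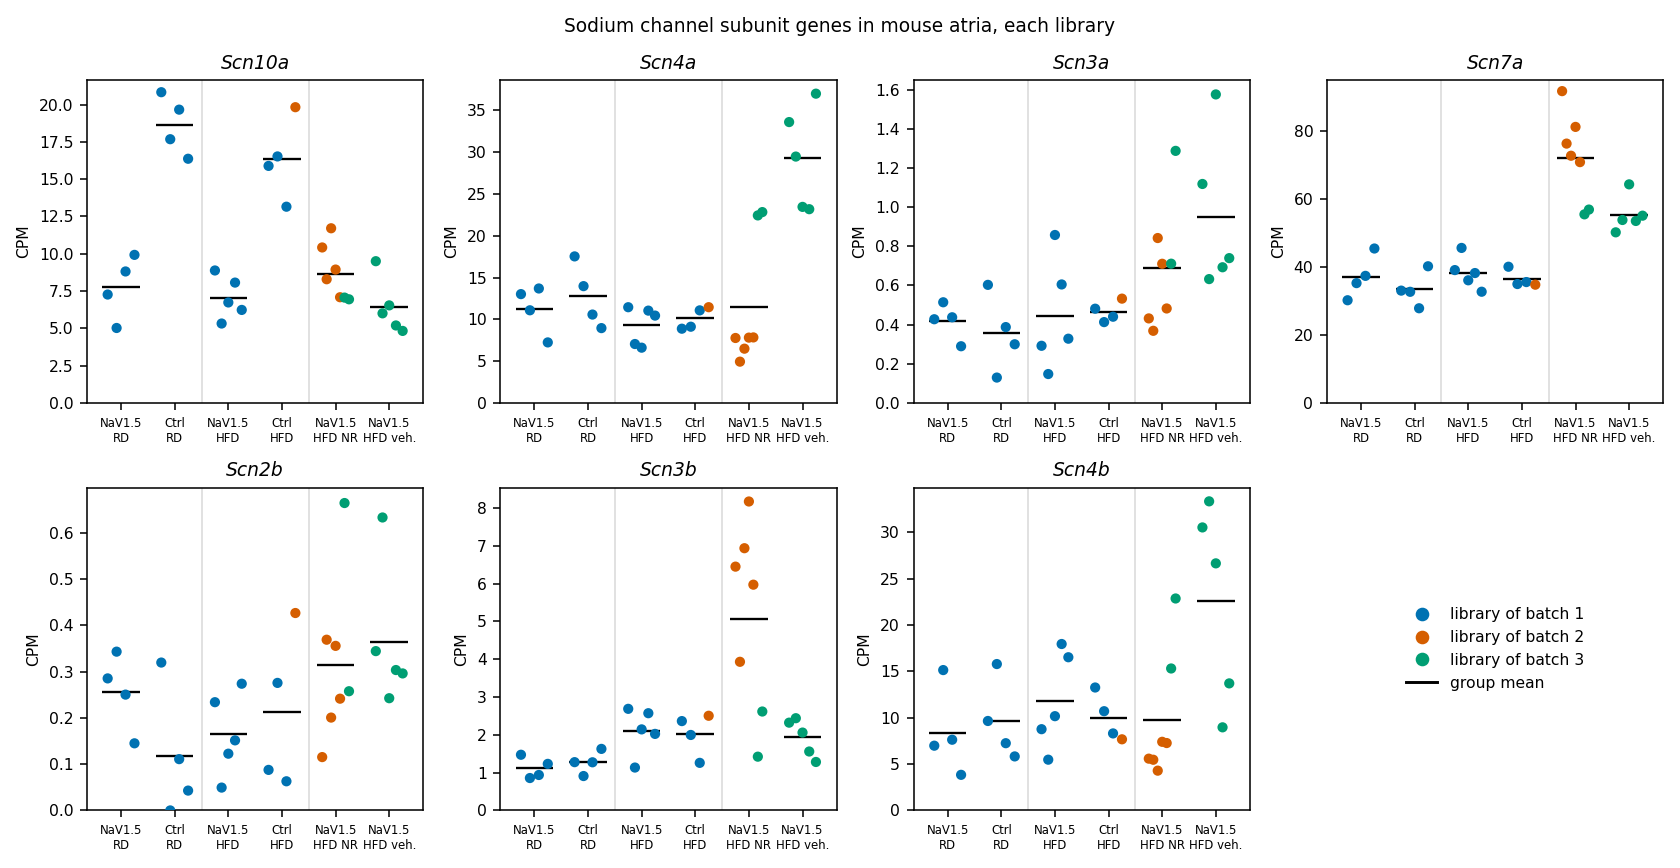
CPM of each of the 7 genes in every library, by group, with NaV1.5 left of Ctrl and NR left of vehicle; points are coloured by batch and black lines mark group means, on linear axes that start at 0. Scn10a lay at 5.03 to 9.93 CPM in NaV1.5 and 13.2 to 20.8 CPM in Ctrl libraries of the diet experiment, while Scn4a, Scn3b and Scn4b differed between batch 2 and batch 3 libraries of the NR group.

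NaV1.5 atria of the other experiment, which has no Ctrl group and lies in other batches, had Scn10a at 6.95 to 11.7 CPM with NR (median 8.29, n = 7) and at 9.50, 6.01, 6.54, 5.20 and 4.83 CPM with vehicle. These 12 libraries lay below the lowest Ctrl library of the diet experiment, 13.2 CPM. That difference was not tested, since the experiments lie in different batches, and how many of all genes lay likewise was not counted. Summed atrial markers also differed between the experiments, at 41245 to 57631 CPM against 16277 to 27787 CPM. These values therefore do not repeat the genotype comparison.

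Markers of other cell types were set beside Scn10a. Of 10 neuronal markers, 5 could be tested and none passed for genotype on either diet (edgeR; at unadjusted p below 0.05, 1 on RD and 2 on HFD). Their summed level was 32.5 to 49.3 CPM in NaV1.5 RD against 32.0 to 64.7 CPM in Ctrl RD, and 26.4 to 42.0 CPM in NaV1.5 HFD against 32.8 to 55.98 CPM in Ctrl HFD libraries. Chat, the enzyme that makes acetylcholine, was at 0 in all 29 libraries, Snap25 was at 0 in 24, while Dbh, which makes noradrenaline, was detected in every library. Of 8 Schwann cell markers, 7 were tested and none passed (edgeR; 1 at unadjusted p below 0.05 on each diet). Their summed level was 42.9 to 58.0 CPM in NaV1.5 RD against 45.8 to 57.1 CPM in Ctrl RD, and 43.0 to 48.7 CPM in NaV1.5 HFD against 50.7 to 53.7 CPM in Ctrl HFD libraries. The Schwann cell sums thus did not overlap on HFD. Of 6 ventricular markers, 5 were tested and Lbh was higher in NaV1.5 atria over both diets (adjusted p = 0.0349, edgeR), with summed levels of 487 to 968 CPM in NaV1.5 RD against 426 to 774 CPM in Ctrl RD, and 346 to 778 CPM in NaV1.5 HFD against 465 to 597 CPM in Ctrl HFD libraries. The part of these cells in the Scn10a result was not tested.

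Genes around Scn10a were examined as well. Of 17 other genes tested that start within 500000 bases of it, none passed for genotype over both diets (edgeR, smallest adjusted p = 0.192; 3 at unadjusted p below 0.05). Their log2 differences ran from -0.53 to 0.35 with a median of -0.07, and 12 of the 17 were below 0. Over all genes tested the median was 0.01, and 11.4% had an unadjusted p below 0.05 (edgeR). The share of all genes below 0 was not counted.

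The other 3 alpha subunits tested gave no call for genotype. Scn4a had 13.02, 11.1, 13.7 and 7.25 CPM in NaV1.5 RD, against 17.5, 14.0, 10.6 and 8.96 CPM in Ctrl RD atria. On HFD it had 11.5, 7.05, 6.62, 11.05 and 10.5 CPM in NaV1.5, against 8.89, 9.12, 11.1 and 11.5 CPM in Ctrl atria. Groups overlapped on both diets, and the log2 differences were -0.16 on RD (95% interval -0.64 to 0.33) and -0.05 on HFD (-0.55 to 0.46). Scn7a averaged 37.1 ± 6.3 CPM in NaV1.5 RD and 33.5 ± 5.1 CPM in Ctrl RD atria (SD, n = 4 each), with a log2 difference of 0.17 (-0.09 to 0.42). On HFD it averaged 38.4 ± 4.7 CPM in NaV1.5 (n = 5) and 36.4 ± 2.5 CPM in Ctrl atria (n = 4), with a log2 difference of 0.06 (-0.20 to 0.33). The intervals of Scn7a, the most deeply counted of the 7 at 504 to 1018 counts per library of the diet experiment, exclude a difference as large as that of Scn10a. For Scn3a, at 2 to 17 counts per library, the interval was wide, from -0.83 to 1.23 on RD and from -1.05 to 1.06 on HFD.

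Neither beta subunit tested gave a call for genotype. Scn3b averaged 1.12 ± 0.28 CPM in NaV1.5 RD and 1.27 ± 0.29 CPM in Ctrl RD atria (SD, n = 4 each), and 2.11 ± 0.61 CPM in NaV1.5 HFD (n = 5) and 2.03 ± 0.56 CPM in Ctrl HFD atria (n = 4). The log2 differences were -0.16 on RD (95% interval -0.79 to 0.47) and 0.17 on HFD (-0.42 to 0.76). Scn4b had 6.99, 15.1, 7.63 and 3.84 CPM in NaV1.5 RD, against 9.65, 15.8, 7.25 and 5.83 CPM in Ctrl RD atria. On HFD it had 8.77, 5.48, 10.2, 17.95 and 16.5 CPM in NaV1.5, against 13.3, 10.7, 8.31 and 7.67 CPM in Ctrl atria. Libraries of 1 group differed by up to 3.94-fold, in NaV1.5 RD, and the intervals of the log2 difference ran from -1.10 to 0.78 on RD and from -0.80 to 1.09 on HFD. Untested Scn2b averaged 0.256 ± 0.083 CPM in NaV1.5 RD and 0.118 ± 0.142 CPM in Ctrl RD atria (SD, n = 4 each), and 0.166 ± 0.089 CPM in NaV1.5 HFD (n = 5) and 0.213 ± 0.171 CPM in Ctrl HFD atria (n = 4). Across the 5 genes other than Scn10a, the smallest adjusted p for genotype was 0.869 on RD and 0.939 on HFD (edgeR). The median log2 difference of the 6 tested genes was -0.16 on RD and 0.03 on HFD, beside 0.01 over all genes tested on either diet.

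The next question was how HFD differed from RD within a genotype. None of the 6 genes passed in NaV1.5 atria, where 1.13% of all genes tested passed (edgeR; 1 member at unadjusted p below 0.05; none by DESeq2 or limma-voom). The number of all genes called there, 182, ranged from 4 without NaV1.5 RD replicate 3 to 1138 without NaV1.5 RD replicate 4, and no member passed with any library left out. None passed in Ctrl atria, where 0.0% of all genes passed (edgeR; 0 members at unadjusted p below 0.05; none by DESeq2 or limma-voom). In Ctrl atria edgeR and limma-voom called 0 genes of the whole transcriptome and DESeq2 called 19, and 1371 had an unadjusted p below 0.05 in edgeR. DESeq2 gave no adjusted p for Scn3a and Scn3b in NaV1.5 atria. In Ctrl atria it gave none for Scn10a, Scn4a, Scn3a, Scn7a and Scn3b. These genes could not pass by DESeq2 there.

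The member with the smallest p was Scn3b. In NaV1.5 atria it had 2.69, 1.13, 2.14, 2.57 and 2.02 CPM on HFD, against 1.47, 0.857, 0.938 and 1.23 CPM on RD. HFD replicate 2 lay within the range of the RD libraries, and the other 4 HFD libraries lay above all of them. The log2 difference was 0.86 (95% interval 0.27 to 1.44, SE 0.28, unadjusted p = 0.00642, adjusted p = 0.111, edgeR), which did not pass the threshold of 0.05. In Ctrl atria Scn3b had 2.36, 2.00, 1.26 and 2.504 CPM on HFD, against 1.28, 0.910, 1.27 and 1.63 CPM on RD. There the log2 difference was 0.53 (95% interval -0.10 to 1.16, adjusted p = 0.638, edgeR). The difference between these diet differences was 0.33 (95% interval -0.54 to 1.19, adjusted p = 1.00, edgeR). Counts of Scn3b were 14 to 58 per library in this experiment, which limits the precision.

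For Scn10a, the log2 differences of HFD over RD were -0.17 (95% interval -0.53 to 0.19) in NaV1.5 and -0.32 (-0.69 to 0.06) in Ctrl atria. For Scn4a they were -0.32 (-0.78 to 0.15) in NaV1.5 and -0.42 (-0.95 to 0.10) in Ctrl atria. Scn7a gave 0.01 (-0.23 to 0.26) in NaV1.5 and 0.12 (-0.16 to 0.39) in Ctrl atria. Scn4b gave 0.45 (-0.45 to 1.34) in NaV1.5 and 0.14 (-0.85 to 1.13) in Ctrl atria. Scn3a gave 0.03 (-0.96 to 1.01) in NaV1.5 and 0.23 (-0.84 to 1.29) in Ctrl atria. The differences by genotype and by diet use some of the same libraries and are not independent of each other. For all 6 tested genes the difference between the genotypes' diet differences missed the threshold (edgeR; 0 at unadjusted p below 0.05; none by DESeq2 or limma-voom), as for every gene tested (0.0%).

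**Figure D3:**
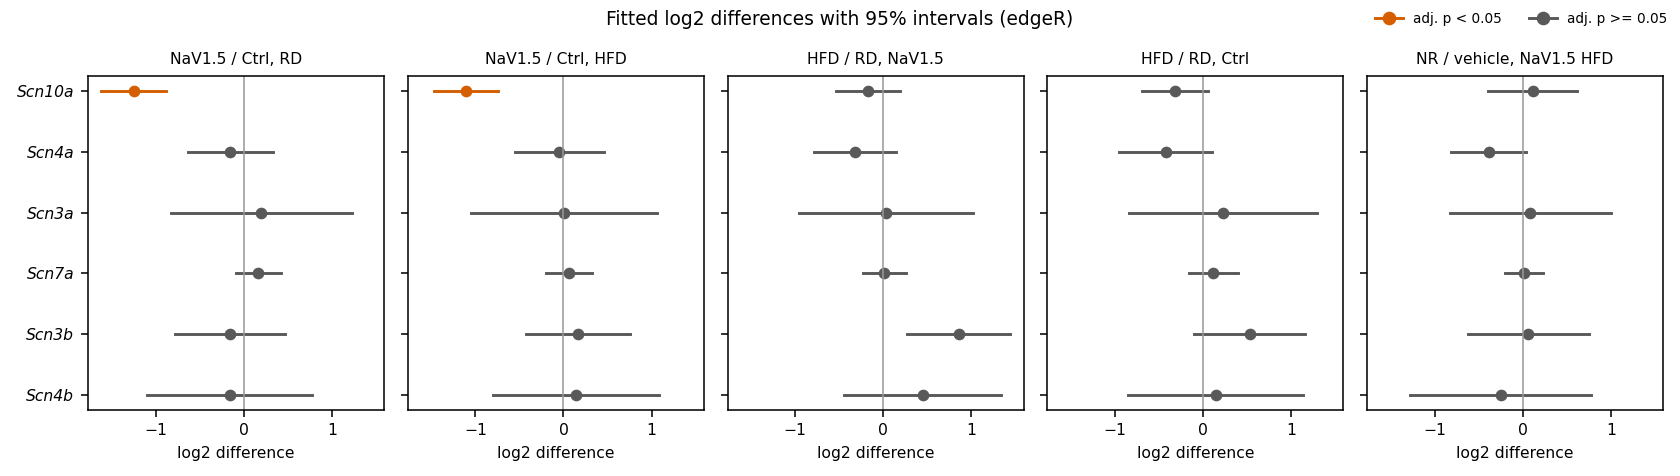
Log2 difference with its 95% interval for the 6 tested genes in 5 comparisons, each written as the first group over the second; orange marks an adjusted p below 0.05 in edgeR's quasi-likelihood test. Scn10a is orange in both genotype comparisons, at -1.25 on RD and -1.10 on HFD, and the remaining intervals are grey.

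The last comparison was NR against vehicle in NaV1.5 mice on HFD. With the batch term, none of the 6 genes passed, where 0.425% of all 16482 genes tested passed (edgeR; 0 members at unadjusted p below 0.05; none by DESeq2 or limma-voom). Since vehicle lies in batch 3, this difference rests on NR replicates 6 and 7. Scn4a, the skeletal muscle alpha subunit, had the smallest p of the 6. It had 7.77, 4.95, 6.50, 7.82, 7.84, 22.4 and 22.8 CPM with NR, in replicates 1 to 7, against 33.6, 29.5, 23.4, 23.2 and 37.0 CPM with vehicle. All NR libraries lay below all vehicle libraries, which was true in either direction for 4.07% of all genes tested. Within batch 3 the NR libraries lay just under the lowest vehicle library. The log2 difference of Scn4a was -0.39 (95% interval -0.81 to 0.04, SE 0.20, adjusted p = 0.515, edgeR). Scn10a gave 0.11 (-0.39 to 0.62), Scn3a 0.09 (-0.82 to 1.00) and Scn7a 0.01 (-0.21 to 0.23). Scn3b gave 0.06 (-0.62 to 0.75) and Scn4b -0.25 (-1.28 to 0.77). Untested Scn2b averaged 0.315 ± 0.177 CPM with NR (n = 7) and 0.364 ± 0.155 CPM with vehicle (n = 5).

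In mean CPM, the members differed more between the batches of the NR group than between NR and vehicle within batch 3. NR libraries of batch 2 averaged 6.98 ± 1.27 CPM of Scn4a (n = 5), against 22.6 ± 0.3 CPM (n = 2) in batch 3. Scn4b averaged 6.00 ± 1.32 CPM in batch 2 NR and 19.1 ± 5.3 CPM in batch 3 NR libraries, against 22.6 ± 10.7 CPM with vehicle (n = 5). Scn3b averaged 6.29 ± 1.55 CPM in batch 2 NR and 2.02 ± 0.84 CPM in batch 3 NR libraries, against 1.93 ± 0.50 CPM with vehicle. Scn7a averaged 78.7 ± 8.4 CPM in batch 2 NR and 56.3 ± 1.0 CPM in batch 3 NR libraries, against 55.5 ± 5.3 CPM with vehicle. For each of the 7 genes the batch 3 NR mean lay closer to the vehicle mean than to the batch 2 NR mean. Scn10a averaged 9.29 ± 1.81 CPM in batch 2 NR and 7.01 ± 0.08 CPM in batch 3 NR libraries, against 6.42 ± 1.85 CPM with vehicle.

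Without a batch term, 3 members passed, where 26.7% of all genes passed (edgeR): Scn3b at a log2 difference of 1.42, Scn7a at 0.41 and Scn4a at -1.35. With batch 2 NR libraries alone against vehicle, 5 passed, where 60.4% of all genes passed (edgeR). In that contrast batch and treatment cannot be told apart. Marker sums moved with the batches too: the 6 atrial markers summed to 16277 to 20641 CPM in batch 2 NR and 24049 to 27787 CPM in batch 3 NR, against 23021 to 27242 CPM in vehicle libraries. The 9 skeletal muscle markers summed to 242 to 368 CPM in batch 2 NR and 735 to 804 CPM in batch 3 NR, against 461 to 665 CPM in vehicle libraries. Ckm made up most of this sum, with a median of 670 CPM over all 29 libraries. The next highest, Actn3, had a median of 6.91 CPM, so the sum does not measure the content of skeletal muscle. For the 7 fibroblast markers the sums were 3369 to 4079 CPM in batch 2 NR and 2711 to 3160 CPM in batch 3 NR, against 2450 to 2800.4 CPM in vehicle libraries. Their part in the members' values was not tested.

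Across the 16 batch 1 libraries, the genes most like each member were taken by Pearson's r of log2 CPM among 12820 genes, as a description. For Scn10a these were Lsp1 (r = 0.90, Spearman's rho 0.86), an actin-binding protein of leukocytes and endothelium, Egflam (r = 0.89, rho 0.88), a matrix protein that binds dystroglycan, and Lrrc75b (r = 0.88, rho 0.87). Since genotype separates the libraries for Scn10a, this choice favours genes that differ by genotype, and their log2 differences of -0.36, -0.37 and -0.81 over both diets are given as a description. For the same reason r was also taken within genotypes. Within the 9 NaV1.5 libraries it was 0.52 for Lsp1, 0.72 for Egflam and 0.61 for Lrrc75b. Within the 7 Ctrl libraries it was 0.52, 0.28 and 0.29 in the same order.

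For Scn4a the nearest was Gys1, the glycogen synthase of muscle (r = 0.92, rho 0.92), followed by Nrip2 (r = 0.91, rho 0.95) and Stat5a (r = 0.91, rho 0.81). For Scn7a it was Snapc5 (r = 0.90, rho 0.89), followed by Cyp4v3 (r = 0.89, rho 0.90) and Trdmt1 (r = 0.89, rho 0.83). Scn3b was most like Hadhb-ps (r = 0.84, rho 0.83), Dpyd (r = 0.83, rho 0.85) and Bag5 (r = 0.82, rho 0.83). Scn4b was most like Hspb6, a small heat shock protein of muscle (r = 0.83, rho 0.79), Kmt5a (r = 0.81, rho 0.69) and Fblim1 (r = 0.81, rho 0.74). No member was among the 3 genes most like another, and r between members ran from -0.57 for Scn4a with Scn7a to 0.34 for Scn4a with Scn4b. The libraries compared share genotype, diet and depth differences, and each r is the highest of many.

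Of 14 genes for partners of sodium channels (fibroblast growth factor homologous factors, ankyrin, syntrophin, kinases and other binding proteins), 13 were tested and 0 passed in each of the 7 comparisons. By edgeR, 2 of the 13 had an unadjusted p below 0.05 for genotype on RD, 3 on HFD and 3 over both diets, beside 6.11%, 8.05% and 11.4% of all genes tested. The count was 5 for the diet in NaV1.5 and 2 in Ctrl atria, 0 for the difference between these and 2 for NR, beside 18.9%, 8.48%, 2.26% and 11.1% of all genes tested. The smallest adjusted p was 0.0803 for Nedd4l, a ubiquitin ligase that targets sodium channels, with a log2 difference of -0.38 for HFD over RD in NaV1.5 atria (edgeR). For genotype over both diets the smallest was 0.1002 for Fgf12, which binds the tail of alpha subunits, with a log2 difference of -0.25 (edgeR). The partners' median log2 difference for genotype over both diets was -0.10, beside 0.01 over all genes tested.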

How the data were processed

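The authors deposited 1 table of raw counts for each library, in which featureCounts 2.0.1 counted read pairs over genes without regard to strand, per the file headers. FastQC 0.11.7 and STAR 2.7.6a with builds GRCm38 and mm10 are named in the submitters' processing notes. Per the labels' protocols, libraries were stranded and poly-A selected. No gene row was blank and no pair of the 29 files was identical.

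Groups, replicate numbers and batches came from the labels. Counts were tested with edgeR 4.0.16 (filterByExpr, TMM, robust quasi-likelihood F-test, 2-sided) in R 4.3.3, with Benjamini-Hochberg adjustment over all genes tested and a threshold of 0.05. The 4 diet groups formed 1 fit and NR and vehicle another, and both had terms for group and batch. An SE is the absolute log2 difference divided by the square root of F. CPM use TMM-scaled library sizes, and likeness was measured on log2 CPM (prior count 2). Python 3.11.15 was used for reading files.

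All 7 members are named in every comparison. The 3 most alike genes were taken for members averaging at least 1 CPM, and partners past the threshold were to be named; Nedd4l and Fgf12 fall outside this and were chosen after their values were seen. Members, lists and tests were chosen with earlier results of these data known. Some genes of the family, and the transgene's expression, are not reported here. Same-numbered libraries did not deviate together (16 pairs, r -0.16 to 0.16, 3 above 0.1), so no pairing was used. Alternatives were DESeq2 1.42.0 size factors and test, limma-voom (limma 3.58.1), other low-count filters (none, 1 CPM), no batch term, single batches, all 29 libraries in 1 fit, the replicate number as a block, each library left out, and, chosen after seeing the data, gene length offsets.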

Additional observations from a re-analysis of the deposited data

Results flagged for a closer look

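Of 42 sets of values (7 genes in 6 groups), 2 held a library that lay far from the others of its group by Dixon's test at 95%; chance gives about 1 in 20. Scn7a was 40.1 CPM in Ctrl HFD replicate 1, with the next library at 35.6 CPM. Scn2b was 0.633 CPM in vehicle replicate 2, from 14 counts, with the next library at 0.344 CPM. Their causes were not tested.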

How the results depend on the processing

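Scn10a kept its direction for genotype under every setting run. Its log2 difference was -1.39 to -1.21 on RD, -1.21 to -1.08 on HFD and -1.24 to -1.15 over both diets without leaving out libraries, and -1.39 to -1.09, -1.19 to -1.01 and -1.25 to -1.10 with each left out. With the replicate number as a block (numbers that do not pair the libraries), 0 members passed on RD and 0 on HFD (Scn10a: adjusted p = 0.0612 and 0.0562, edgeR), while Scn10a passed over both diets. Under this block 1, 8, 36 and 27 genes in all passed on RD, on HFD, over both diets and for the diet in NaV1.5, against 2, 14, 73 and 182 without it; it left out libraries without a number. With libraries left out in turn, 0 to 1 members passed on RD and 0 to 1 on HFD, and the calls among all genes ranged from 1 to 5 on RD, 2 to 14 on HFD, 40 to 129 over both diets, 4 to 1138 for the diet in NaV1.5 and 1 to 66 for NR. For NR, 3 members passed with no batch term and 5 with batch 2 NR against vehicle. A replicate block with batch could not be fitted for NR.

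Members with no call changed sign in some settings, and none of these values passed. Under the block, Scn4a (0.16) and Scn4b (0.17) on RD, Scn3a (-0.18) and Scn4b (-0.10) on HFD, and Scn10a (0.016) and Scn3a (-0.25) for the diet in NaV1.5 did so. With limma-voom, Scn3a (-0.22) and Scn4b (-0.0022) on HFD and Scn3a (-0.20) for the diet in NaV1.5 did so. Scn3a on HFD was -0.066 with no batch term and -0.0040 in batch 1 alone. With gene length offsets, Scn3a (-0.0063) and Scn7a (-0.014) did so for the diet in NaV1.5. For NR, Scn3a was -0.45 with no batch term and -0.74 with batch 2 NR, and Scn7a was -0.0086 with all 29 libraries in 1 fit.

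With libraries left out in turn, the ranges that crossed 0 were, for genotype on RD, -0.30 to 0.028 for Scn4a, -0.022 to 0.60 for Scn3a and -0.61 to 0.18 for Scn4b. On HFD they were -0.13 to 0.076 for Scn4a, -0.067 to 0.24 for Scn3a, -0.0026 to 0.11 for Scn7a, -0.018 to 0.34 for Scn3b and -0.081 to 0.33 for Scn4b. For the diet they were -0.092 to 0.27 for Scn3a and -0.072 to 0.12 for Scn7a in NaV1.5, and -0.046 to 0.50 for Scn4b in Ctrl atria. For the genotype difference on HFD minus that on RD, Scn10a ran from -0.019 to 0.28, and Scn4a, Scn3a, Scn7a and Scn4b crossed 0 too, as did Scn3a, Scn3b and Scn4b for genotype over both diets. For NR they were -0.40 to 0.45 for Scn3a, -0.023 to 0.072 for Scn7a, -0.45 to 0.43 for Scn3b and -0.57 to 0.013 for Scn4b. The causes were not tested. Low counts limit Scn3a, Scn2b and Scn3b.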
